A study of Homo sapiens with 18 samples.

Results

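The genes described here are 39 genes of cholesterol and fatty acid synthesis, their transcriptional regulators and sterol transport. They were taken from the 57448 genes of the count table by symbol, by no measured value, though with earlier results of these data known. They fall into 5 roles: 5 regulators of the sterol regulatory element binding proteins (SREBPs), 18 enzymes of sterol synthesis, 8 enzymes of fatty acid synthesis, 5 receptors and targets of the liver X receptors (LXRs), and 3 sterol transfer proteins. RNA depleted of ribosomal RNA was sequenced from MDA-MB-231 cells, a triple negative human breast cancer line, to examine what depletion of GPS2, a subunit of nuclear receptor corepressor complexes, does to signalling through PI3K and AKT. The 18 libraries form 6 groups of 3. WT libraries came from unmodified MDA-MB-231 cells. KO1 and KO2 are separate pools of cells transduced with lentivirus that carries Cas9 and different sets of sgRNAs against GPS2, selected with puromycin and kept as mixed pools, so each may hold both edited and unedited cells. The myrAKT cells received a retroviral myristoylated, FLAG-tagged AKT, a form held at the membrane and constitutively active. KO1+MK and KO2+MK cells are the same pools after 4 h in 10 µM MK2206, an allosteric AKT inhibitor. No group of WT or myrAKT cells given MK2206 and no group with an empty vector was among the libraries analysed here. The effects of GPS2 loss and of transduction and selection therefore cannot be told apart. Nor can effects of the AKT construct be told apart from those of retroviral transduction. The action of MK2206 cannot be compared with that in unedited cells. The libraries held 33725461 to 37128614 counted reads in WT, 37501225 to 39319910 in KO1, 35627965 to 39027425 in KO2, 30287210 to 37046141 in myrAKT, 23419198 to 29365207 in KO1+MK and 27544978 to 29939536 in KO2+MK. Nothing in the labels says that the 3 replicates of a group were separate cultures, so p-values measure only the spread between these libraries, which may be technical.

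Cells make cholesterol and unsaturated fatty acids under the control of SREBPs, transcription factors anchored in the endoplasmic reticulum. When sterols are scarce, SCAP escorts them to the Golgi, where proteases release the active part, and when sterols are plentiful the INSIG proteins hold SCAP back. LXRs work in the opposite sense: they bind oxysterols and switch on genes that export cholesterol, and in the absence of ligand they recruit corepressor complexes. AKT signalling is known to favour SREBP activity, and many tumour lines rely on lipid synthesis for membranes.

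The labels were first checked against the RNA, with levels in CPM, a gene's reads relative to the TMM-normalized total of its library. GPS2 was at 4.402, 4.89 and 4.42 CPM in WT, 4.54, 4.46 and 4.51 in KO1 and 5.901, 6.09 and 6.13 in KO2, so the libraries labelled KO1 overlapped WT and those labelled KO2 were all higher. It was at 6.02, 6.13 and 4.51 CPM in myrAKT, 5.12, 4.79 and 5.84 in KO1+MK and 6.16, 5.91 and 5.59 in KO2+MK, none of them below the lowest WT library. In both pools together the log2 fold change of GPS2 against WT was 0.19 (standard error 0.133, edgeR adjusted p = 0.246). The GPS2 counts are uncertain: of its 3089 exon bases, 1621 (52.5%) also belong to other genes of GENCODE release 44, 1380 to a readthrough gene on the same strand (ENSG00000261915) and 241 to EIF5A on the opposite strand, and how reads there were assigned is not given in the sources used here. Counts per gene do not read an edit in the sequence either, and the group names used here are those of the labels. AKT1 was at 135, 134 and 136 CPM in WT and 242, 232 and 218 in myrAKT, with a log2 fold change of 0.77 (standard error 0.0443, edgeR adjusted p = 4.27e-09) and no overlap between the groups. Of the 6 markers expected in MDA-MB-231 (VIM, CD44, AXL, KRT8, KRT18 and SNAI2), all had a group mean of at least 7.24 CPM in each group. Of the 5 expected to be low, PGR and CDH1 never reached 1 CPM, ESR1 had group means of 0.765 to 1.12 CPM, EPCAM had its lowest group mean in myrAKT (3.22 CPM), and ERBB2 was the most abundant with a mean of 86.0 CPM over all libraries. The 9 markers of other cell types summed to 46.1 to 49.6 CPM in the WT libraries, 31.5 to 32.5 in KO1, 34.6 to 35.5 in KO2, 43.0 to 47.5 in myrAKT, 34.0 to 40.6 in KO1+MK and 36.6 to 40.7 in KO2+MK, with COL1A1 the most abundant by the mean over all 18 libraries. By group means PDGFRB was above COL1A1 in WT and KO2, and PECAM1 was above it in myrAKT. MS4A1 was at 0 in every library, and PTPRC, CD3E and ALB stayed below 1 CPM in every library. Of the 5 tested, CDH5 (log2 fold change −1.98), PDGFRB (−0.58) and COL1A1 (−0.43) were called lower in KO than in WT. In myrAKT CDH5 (−3.09), PDGFRB (−1.73) and COL1A1 (−0.51) were lower and PECAM1 (2.55) was higher, and after MK2206 COL1A1 (0.39) was higher. CDH5 averaged 3.07 CPM in WT, 0.79 in KO and 0.36 in myrAKT, so the size of its differences is uncertain. Of the 6 markers expected to be present, VIM (0.35), AXL (0.39) and SNAI2 (0.44) were called higher and CD44 (−0.50) and KRT18 (−0.35) lower in myrAKT, and SNAI2 was lower after MK2206 (−1.17). EPCAM, of those expected to be low, was called lower in KO (−0.41) and in myrAKT (−1.90). Of these marker calls, those of EPCAM and CDH5 in KO and of SNAI2 in both comparisons ended when certain single libraries were left out, with edgeR adjusted p of up to 0.00357, 0.00196, 0.00125 in myrAKT and 0.00154 after MK2206. In KO1 against KO2, PECAM1 (−1.22), SNAI2 (−0.82) and AXL (−0.25) were called lower and CD44 (0.17), KRT8 (0.25) and KRT18 (0.34) higher. In KO against myrAKT, PECAM1 (−2.90) was lower and CD44 (0.42), KRT18 (0.66), PDGFRB (1.14) and EPCAM (1.49) were higher. Calls against WT in 1 pool only included PECAM1 in KO1 (−1.075) and SNAI2 in KO2 (0.98). In the treated pools against WT, CDH5 (−2.25), PDGFRB (−0.68) and EPCAM (−0.79) were lower. The part of these differences in the results for the lipid genes was not tested. In bulk RNA, fewer cells and less RNA per cell cannot be told apart.

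All 39 genes reached 1 CPM in every one of the 18 libraries and were among the 15587 genes tested, and the lowest count of any of them in a library was 54. Per kilobase of annotated exon, the mean WT level ran from 1.45 CPM for ABCG1 to 485 CPM for SCD, the stearoyl-CoA desaturase that makes monounsaturated fatty acids. FASN, the fatty acid synthase, had 170.0 CPM per kilobase, ACLY, which makes cytosolic acetyl-CoA from citrate, 124 CPM per kilobase, and INSIG1 96.2 CPM per kilobase. The cholesterol exporter ABCA1 was next to lowest with 2.07 CPM per kilobase. Exon bases were shared with another counted gene in 18 of the 39 genes. The strand setting of the counting is not given in the sources used here, so reads in bases shared with a gene on the opposite strand cannot be told apart and the values of these 18 are less certain. The share was largest for HMGCS1 (37.7% of its exon bases), NR1H2 (22.1%), FDPS (18.6%), ACAT2 (17.2%) and IDI1 (15%), with partners of few counts except TCP1 for ACAT2 and RUSC1-AS1 for FDPS. Further partners with many counts were FADS1 and FADS2 for each other (490 bases), FEN1 for FADS2 (49 bases, same strand), RAI1 for SREBF1 (556 bases), ACP2 for NR1H3, MMAB for MVK (225 bases), AKAP9 for CYP51A1 (108 bases) and VPS51 for TM7SF2 (18 bases, same strand). SREBF2 shared 731 bases with SREBF2-AS1.

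**Figure D1:**
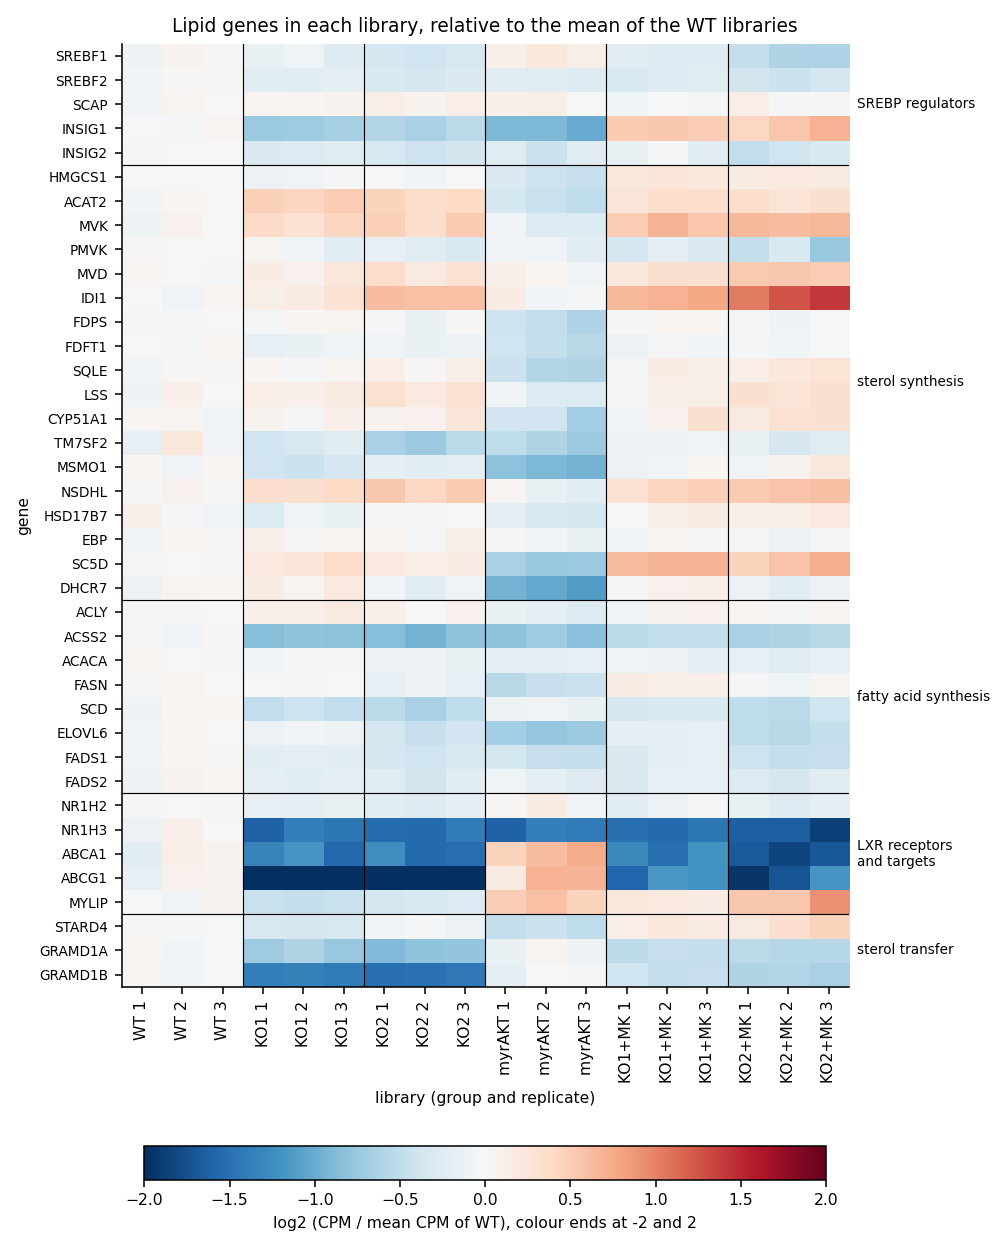
Each row is 1 of the 39 lipid genes, ordered by role, each column is 1 of the 18 libraries, and the colour gives the log2 ratio of the gene's CPM to its mean in the 3 WT libraries, with colours ending at −2 and 2. NR1H3, ABCG1 and GRAMD1B are low in all 6 untreated KO libraries, DHCR7 and MSMO1 are lowest in the 3 myrAKT libraries, and INSIG1 is higher in the 6 treated libraries than in WT.

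Promoter sequence was examined because many of these genes differed between groups in the same direction. RefSeq windows of 300 bases, from 250 before to 50 from the annotated transcription start on, were found by symbol for 33 of the 39 genes, as 48 windows, since 11 genes have more than 1. FDFT1, SQLE, FASN, ACAT2, GRAMD1B and ABCG1 had none in the table. Both strands were searched for 4 motifs: the sterol regulatory element TCACNCCAC, the NF-Y box CCAAT, the E-box CACGTG, and the LXR element of the DR4 kind, the repeats GGTNA and GGTCA with 5 free bases between them. The NF-Y box, which NF-Y binds next to SREBP sites in many sterol genes, was in 27 of the 48 windows (56.2%), against 34.6% of all 35116 windows of the table. The E-box was in 6 of the 48 windows (12.5%, against 7.26% of all), the sterol regulatory element in 1 (2.08%, against 1.13%) and DR4 in 1 (2.08%, against 0.239%). No match of a motif overlapped a match of another in these windows. A match describes letters and is no evidence of binding.

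The stretches below are shown because they hold the matches of 5 genes whose RNA differed between groups. They are from RefSeq on GRCh38.p14, read 5′ to 3′ on the strand of the gene, with the matches in capitals: an E-box and then DR4 in ABCA1, the sterol regulatory element and then an NF-Y box in SREBF2, and NF-Y boxes alone in INSIG1, MYLIP and MSMO1.
ABCA1, chr9:104928198-104928314, minus strand: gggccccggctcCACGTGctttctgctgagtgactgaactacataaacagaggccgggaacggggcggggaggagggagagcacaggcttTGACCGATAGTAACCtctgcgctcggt
SREBF2, chr22:41832960-41833015, plus strand: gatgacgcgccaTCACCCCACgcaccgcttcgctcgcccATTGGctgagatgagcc
INSIG1, chr7:155297696-155297724, plus strand: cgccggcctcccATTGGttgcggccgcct
MYLIP, chr6:16128965-16129034, plus strand: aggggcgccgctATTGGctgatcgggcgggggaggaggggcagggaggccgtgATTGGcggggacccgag
MSMO1, chr4:165327472-165327651, plus strand: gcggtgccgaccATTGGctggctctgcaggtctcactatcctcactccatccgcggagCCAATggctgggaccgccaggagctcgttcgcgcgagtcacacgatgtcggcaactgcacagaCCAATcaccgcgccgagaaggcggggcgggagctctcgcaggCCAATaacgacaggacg
The stretch of ABCA1 ends 43 bases before the annotated start, that of SREBF2 90 bases, that of INSIG1 154 bases, that of MYLIP 52 bases and that of MSMO1 18 bases before it. In GENCODE release 44 none of the stretches lies in an exon of a protein-coding gene. That of ABCA1 lies within ENSG00000226334, a long noncoding RNA gene on the other strand, and that of SREBF2 in an exon of the antisense gene SREBF2-AS1. INSIG1 also had an E-box 55 bases before its RefSeq start, which is not shown because GENCODE places it in the first exon.

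**Figure D2:**
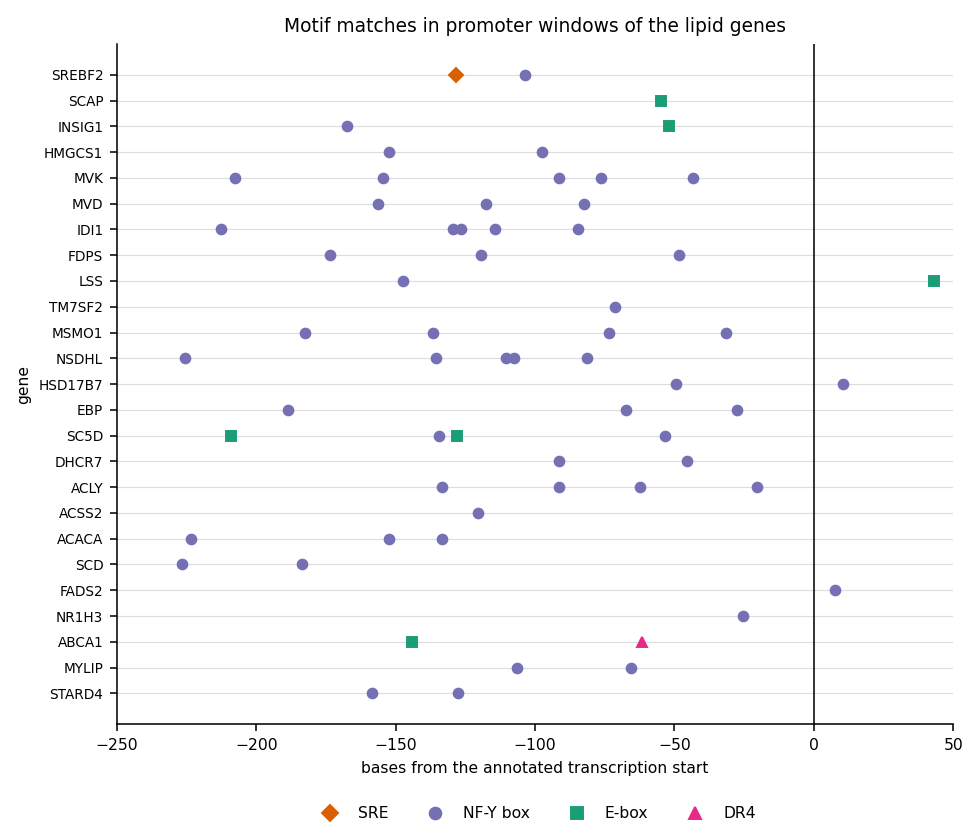
Each row is 1 lipid gene with a match, the x axis gives bases from the annotated transcription start, and symbols mark the middle of each match to the sterol regulatory element (SRE), NF-Y box, E-box and DR4, with all windows of a gene on its row. MVK and MSMO1 hold several NF-Y boxes before the start, and DR4 appears in ABCA1 alone.

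The 6 untreated libraries labelled KO1 or KO2, named KO together, were compared first with the 3 WT libraries, to ask how these genes differ in cells targeted for GPS2. With edgeR's quasi-likelihood test and Benjamini-Hochberg adjustment over 15587 genes, called at an adjusted p of at most 0.001, 3 of the 39 genes were higher in KO, where 15.5% of all genes tested were called higher, and 15 were lower, where 16.6% of all were called lower. The median log2 fold change of the 39 genes was −0.17, against −0.00291 for all genes tested. All 5 LXR receptors and targets were lower, with the calls for MYLIP and NR1H2 ended by leaving out any 1 WT library, as were 2 of the 3 sterol transfer genes, 3 of the 5 SREBP regulators and 4 of the 8 fatty acid synthesis genes, while of the 18 sterol synthesis genes 3 were higher and 1 was lower. Among the 15 lower genes, 7 differed by at least 1.5-fold, and none of the 3 higher genes did. Of all genes tested, 1339 of the 2586 called lower and 635 of the 2420 called higher differed by that much. Without WT replicate 2 or without WT replicate 3 the number of lower genes was 9, and with all 18 libraries in 1 fit 7 genes were higher and 19 lower. The shares of all genes called in those fits are not given here, so these shifts cannot be read as particular to the 39 genes.

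The LXR group held the lowest log2 fold changes of the 39 genes, those of ABCG1 and NR1H3. NR1H3 (ENSG00000025434, chr11:47248300-47269033, plus strand), which encodes LXR alpha, was at 27.5, 31.9 and 29.8 CPM in WT, 9.702, 11.6 and 10.9 in KO1 and 10.2, 10.2 and 11.2 in KO2. Every KO library lay below every WT library, and the log2 fold change was −1.50 (standard error 0.0654, edgeR adjusted p = 5.4e-08). ABCA1 (ENSG00000165029, chr9:104781006-104928155, minus strand), which passes cholesterol and phospholipid to lipid-poor apolipoproteins, was at 20.3, 25.5 and 24.6 CPM in WT, 9.33, 10.4 and 7.89 in KO1 and 9.88, 7.995 and 8.15 in KO2. Its groups did not overlap either, with a log2 fold change of −1.41 (standard error 0.0998, edgeR adjusted p = 6.27e-07). ABCG1 (ENSG00000160179, chr21:42199689-42297244, plus strand), an exporter that hands cholesterol to high-density lipoprotein, was at 7.89, 9.37 and 9.29 CPM in WT, 2.03, 1.84 and 1.495 in KO1 and 2.18, 1.93 and 2.15 in KO2. Its log2 fold change was −2.21 (standard error 0.113, edgeR adjusted p = 1.17e-07), with all 6 KO libraries under the lowest WT library. MYLIP (ENSG00000007944, chr6:16129086-16148248, plus strand), an E3 ubiquitin ligase that marks lipoprotein receptors for degradation, was at 18.2, 17.6 and 19.4 CPM in WT, 13.5, 13.2 and 13.5 in KO1 and 14.6, 14.8 and 15.2 in KO2. The KO libraries were all lower than WT by a smaller margin, with a log2 fold change of −0.40 (standard error 0.0612, edgeR adjusted p = 0.000173). The call for MYLIP ended without WT replicate 1, 2 or 3 (−0.40, edgeR adjusted p = 0.00139; −0.41, edgeR adjusted p = 0.00104; −0.33, edgeR adjusted p = 0.00326). NR1H2, which encodes LXR beta, was also called lower, with a log2 fold change of −0.21 (standard error 0.0361, edgeR adjusted p = 0.000369) and no overlap between the groups. The call for NR1H2 ended without any 1 of the WT libraries, KO1 replicate 1 or KO2 replicate 1 or 2 (edgeR adjusted p up to 0.00446), and with the replicate block or no filter on low counts (edgeR adjusted p up to 0.0131). Of the exon bases of NR1H3, 189 are shared with ACP2 on the opposite strand.

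The sterol transfer genes GRAMD1A and GRAMD1B encode Aster proteins, which sit in the endoplasmic reticulum and carry cholesterol to it from the plasma membrane. GRAMD1A (ENSG00000089351, chr19:34994784-35026471, plus strand) was at 39.5, 36.9 and 38.5 CPM in WT, 23.4, 25.3 and 22.7 in KO1 and 20.7, 21.8 and 22.2 in KO2. GRAMD1B was at 89.9, 82.8 and 85.8 CPM in WT, 33.3, 33.8 and 32.5 in KO1 and 30.4, 30.6 and 32.1 in KO2. Neither gene had a KO library within the WT range, and the log2 fold change of GRAMD1A was −0.77 (standard error 0.0575, edgeR adjusted p = 8.39e-07). STARD4, a soluble carrier of sterols between membranes, was at 115, 111 and 114 CPM in WT, 90.8, 90.2 and 91.2 in KO1 and 109, 111 and 105 in KO2. It lay below WT in all 6 KO libraries, in KO2 by little (110.7 CPM at the highest, against 111.1 CPM in the lowest WT library), but missed the threshold in the pooled test, with a log2 fold change of −0.21 (standard error 0.0711, edgeR adjusted p = 0.0256), and was called when KO1 was compared with WT on its own (log2 fold change −0.34, standard error 0.0316, edgeR adjusted p = 2.76e-07). The pooled difference of STARD4 was called with all 18 libraries in 1 fit (−0.19, edgeR adjusted p = 0.00019).

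**Figure D3:**
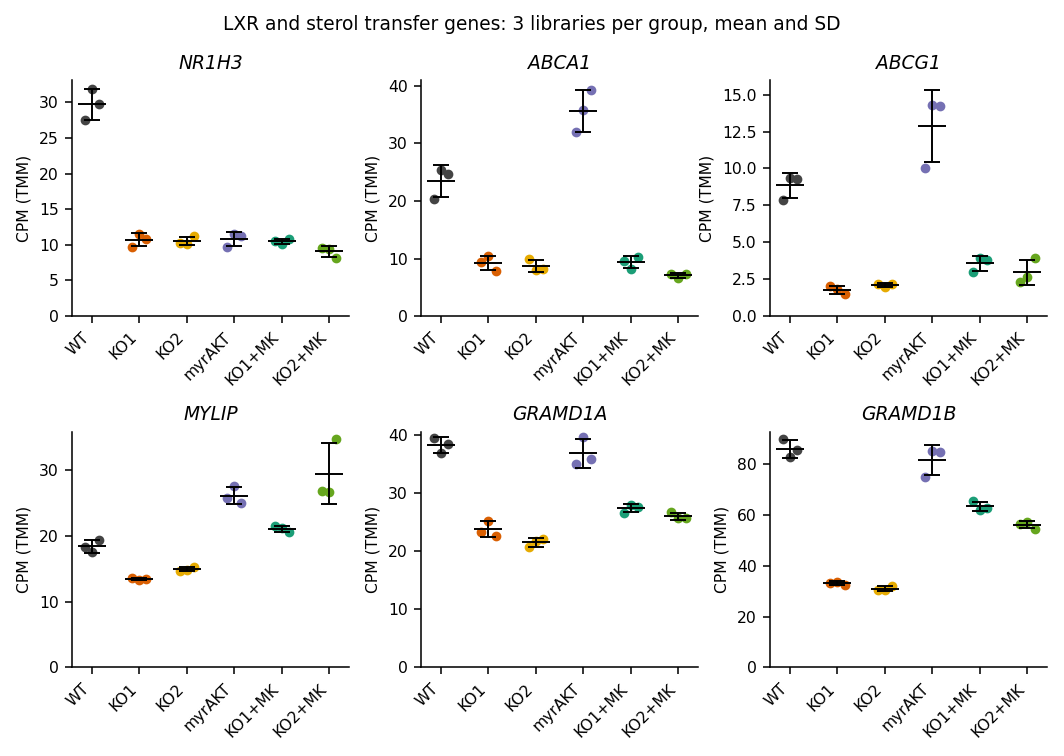
CPM (TMM-normalized, linear axis from 0) of 3 LXR genes, MYLIP and the 2 Aster genes in each library, as points by group, with the mean and SD of 3 libraries as black bars. NR1H3 is low in every group but WT, while ABCA1 and ABCG1 are low in the KO pools, treated or not, and highest in myrAKT.

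Of the SREBP regulators, INSIG1 (ENSG00000186480, chr7:155297776-155310235, plus strand), the endoplasmic reticulum anchor of SCAP, was at 349, 341 and 364 CPM in WT, 210.5, 215 and 223 in KO1 and 235, 225 and 240.4 in KO2. No KO library reached the WT range, and the log2 fold change was −0.66 (standard error 0.044, edgeR adjusted p = 4.34e-07). INSIG2, its paralogue, was at 29.7, 30.4 and 30.1 CPM in WT, 24.6, 24.8 and 25.4 in KO1 and 24.2, 22.7 and 23.4 in KO2, again without overlap, with a log2 fold change of −0.34 (standard error 0.0439, edgeR adjusted p = 5.09e-05). SREBF2, which encodes the SREBP that chiefly drives cholesterol synthesis, was at 298, 312 and 315 CPM in WT, 266, 264 and 273 in KO1 and 250.3, 243 and 253 in KO2. Its libraries did not overlap and its log2 fold change was −0.27 (standard error 0.0413, edgeR adjusted p = 0.000154), a call that ended without WT replicate 2 (−0.24, edgeR adjusted p = 0.00164) or WT replicate 3 (−0.24, edgeR adjusted p = 0.00192). SREBF1, which encodes the SREBP that chiefly drives fatty acid synthesis, overlapped between KO and WT, with a log2 fold change of −0.27 (standard error 0.0655, edgeR adjusted p = 0.00383) that missed the threshold. It was called without KO1 replicate 2 (−0.31, edgeR adjusted p = 0.000895), with all 18 libraries in 1 fit (−0.26, edgeR adjusted p = 1.17e-05) and by DESeq2 (−0.27, DESeq2 adjusted p = 0.000555). SCAP had a log2 fold change of 0.06 (standard error 0.0379, edgeR adjusted p = 0.162), with overlapping libraries.

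Among the genes of fatty acid synthesis, ACSS2, which makes acetyl-CoA from acetate, was at 158, 149.9 and 157 CPM in WT, 86.2, 89.1 and 88.1 in KO1 and 85.8, 80.8 and 87.7 in KO2. The KO libraries were all far under WT, with a log2 fold change of −0.86 (standard error 0.0366, edgeR adjusted p = 4.72e-08). SCD was at 2381, 2626 and 2621 CPM in WT, 1805, 1901 and 1816 in KO1 and 1743, 1618 and 1784 in KO2. It too showed no overlap and had a log2 fold change of −0.54 (standard error 0.0513, edgeR adjusted p = 4.96e-06). FADS1 and FADS2, the desaturases of polyunsaturated fatty acid synthesis, had log2 fold changes of −0.30 ± 0.0508 and −0.26 ± 0.0484 (standard errors; edgeR adjusted p = 0.000374 and 0.000669). Those calls were less firm: that of FADS1 ended without WT replicate 2, WT replicate 3 or KO2 replicate 3 (edgeR adjusted p up to 0.00386) and with the replicate number as a block, and that of FADS2 ended without any of the 9 libraries but WT replicate 1 (edgeR adjusted p up to 0.00819), with that block and with no filter on low counts. The remaining 4 genes, ACLY, ACACA, FASN and ELOVL6, had log2 fold changes of −0.25 to 0.08 and were not called, though ELOVL6 was with all 18 libraries in 1 fit (−0.24, edgeR adjusted p = 7.12e-07).

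The sterol synthesis enzymes did not move one way. ACAT2, the thiolase that opens the mevalonate pathway, was at 118, 126 and 123 CPM in WT, 169.9, 165 and 173 in KO1 and 167, 156 and 162 in KO2. All 6 KO libraries were higher than WT, with a log2 fold change of 0.42 (standard error 0.0394, edgeR adjusted p = 4.39e-06). It shares 454 exon bases with TCP1 on the opposite strand, a gene with more counts. NSDHL, a dehydrogenase that acts in the demethylation of sterol precursors, and MVK, the mevalonate kinase, were also called higher, with log2 fold changes of 0.41 ± 0.0588 and 0.39 ± 0.0572 (standard errors; edgeR adjusted p = 0.000104 and 0.000114). The call for NSDHL ended without WT replicate 1 (0.39, edgeR adjusted p = 0.00114) or WT replicate 3 (0.41, edgeR adjusted p = 0.00107). MSMO1, the methylsterol monooxygenase, was at 151, 140.5 and 151 CPM in WT, 113, 109 and 117 in KO1 and 130.2, 126 and 130.1 in KO2. Its KO libraries lay below WT, with a log2 fold change of −0.31 (standard error 0.0594, edgeR adjusted p = 0.000897), close to the threshold: 7 of the 9 libraries ended the call when left out, all but KO2 replicates 1 and 3, and the edgeR adjusted p then reached 0.0115. The call for MSMO1 also ended with DESeq2 size factors, upper-quartile normalization, library totals and the replicate block (edgeR adjusted p up to 0.0029). The other 14 genes of the pathway had log2 fold changes of −0.49 to 0.39 and were not called. Of these, SC5D was called by DESeq2 (0.20, DESeq2 adjusted p = 0.000537) and with all 18 libraries in 1 fit (0.21, edgeR adjusted p = 0.00043). Further genes that are not listed here were also called higher in that fit.

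Each pool was also compared with the same WT libraries on its own. In KO1, 4 of the 39 genes were higher (20.5% of all genes tested) and 16 lower (21.3% of all), and with no filter on low counts 8 were higher. In KO2, 6 were higher (20.8% of all) and 18 lower (22.2% of all). ABCG1 had a log2 fold change of −2.32 ± 0.125 in KO1 and −2.09 ± 0.114 in KO2 (standard errors), GRAMD1B had −1.39 ± 0.0427 and −1.48 ± 0.0407, and INSIG1 had −0.72 ± 0.0343 and −0.60 ± 0.0368. Tested against each other, KO1 was higher than KO2 in 2 of the 39 genes (7.06% of all genes tested) and lower in 3 (5.54% of all). The number higher was 5 by DESeq2, 8 with no filter on low counts, 4 with the replicate block, and 1 with all 18 libraries in 1 fit or without KO1 replicate 1. The shares of all genes called in these alternative fits are not given here. ELOVL6, the elongase of long-chain fatty acids, was at 169, 177 and 171 CPM in KO1 and 143, 132 and 141 in KO2, without overlap, a log2 difference of 0.30 (standard error 0.0325, edgeR adjusted p = 1.98e-06). IDI1, the isomerase of isopentenyl diphosphate, was at 74.2, 69.7 and 76.3 CPM in WT, 79.7, 81.8 and 89.6 in KO1 and 113, 109.7 and 110.1 in KO2. It was higher in every KO2 library than in any KO1 library, with a log2 difference of −0.42 (standard error 0.0381, edgeR adjusted p = 3.08e-07).

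The same genes were next examined in the myrAKT cells, in which effects of active AKT cannot be told apart from those of retroviral transduction. Against WT, 2 of the 39 genes were higher in myrAKT, where 12.7% of all genes tested were called higher, and 19 were lower, where 17.3% of all were called lower. The median log2 fold change was −0.24 for the 39 genes and 0.02 for all genes tested. Of the 18 sterol synthesis genes 10 were lower, and their median log2 fold change was −0.41. In the LXR group ABCA1 and MYLIP were higher and NR1H3 was lower. These comparisons share the WT libraries with those of the KO pools, so their values are given side by side and not correlated.

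DHCR7, the reductase of the last step in a branch of cholesterol synthesis, was at 183, 203 and 202 CPM in WT and 102, 96.3 and 90.3 in myrAKT. The myrAKT libraries were all under WT, with a log2 fold change of −1.03 (standard error 0.0542, edgeR adjusted p = 1.68e-09), where the KO pools gave −0.01 ± 0.0801. MSMO1 was at 83.7, 79.1 and 76.8 CPM in myrAKT, below every WT and KO library, with a log2 fold change of −0.89 (standard error 0.0457, edgeR adjusted p = 1.35e-09). SC5D, a sterol desaturase late in the pathway, was at 68.97, 70.2 and 71.3 CPM in WT and 44.99, 41.4 and 42.4 in myrAKT. It did not overlap with WT and had a log2 fold change of −0.72 (standard error 0.0458, edgeR adjusted p = 1.26e-08), against 0.20 ± 0.0491 in the KO pools. HMGCS1, the cytosolic HMG-CoA synthase, and ACAT2 had log2 fold changes of −0.39 ± 0.046 and −0.44 ± 0.0466 (standard errors; edgeR adjusted p = 6.32e-06 and 2e-06). The remaining 5 called genes, FDPS, FDFT1, SQLE, CYP51A1 and TM7SF2, had log2 fold changes of −0.62 to −0.48. The call for CYP51A1 ended without WT replicate 1 or 2 or myrAKT replicate 3 (edgeR adjusted p up to 0.00204), and with upper-quartile normalization, library totals or thinned libraries.

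INSIG1 was at 189, 189 and 175 CPM in myrAKT, below all WT and KO libraries, with a log2 fold change of −0.94 (standard error 0.0464, edgeR adjusted p = 9.3e-10). SREBF2 (−0.23 ± 0.0438, edgeR adjusted p = 0.000411) and INSIG2 (−0.31 ± 0.0603, edgeR adjusted p = 0.00056) were also called lower. Both calls ended without WT replicate 2, WT replicate 3 or myrAKT replicate 2, with edgeR adjusted p of up to 0.00516 for SREBF2 and 0.00381 for INSIG2, and with upper-quartile normalization. That of SREBF2 also ended with the replicate block, and that of INSIG2 with library totals and in libraries thinned to the smallest total. SREBF1 stood at 137, 153 and 149 CPM in WT and 157, 168 and 159 in myrAKT, without overlap but not called, with a log2 fold change of 0.13 (standard error 0.0509, edgeR adjusted p = 0.0389). SCAP had 0.07 (standard error 0.0474, edgeR adjusted p = 0.248).

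Of the fatty acid synthesis genes, ACSS2 was at 87.8, 94.4 and 87.1 CPM in myrAKT, under every WT library, with a log2 fold change of −0.79 (standard error 0.0447, edgeR adjusted p = 3.35e-09). ELOVL6 was at 176, 188 and 184 CPM in WT and 114, 107 and 110.0 in myrAKT. Those groups did not overlap either, and the log2 fold change was −0.73 (standard error 0.0446, edgeR adjusted p = 7.34e-09). FASN and FADS1 were called lower as well, with log2 fold changes of −0.49 and −0.44. SCD, which was lower in the KO pools, overlapped with WT here and had a log2 fold change of −0.11 (standard error 0.0552, edgeR adjusted p = 0.12).

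NR1H3 was at 9.73, 11.5 and 11.2 CPM in myrAKT, in the range of the KO pools and below all WT libraries, with a log2 fold change of −1.47 (standard error 0.0788, edgeR adjusted p = 2.14e-09). The LXR target ABCA1 was at 32.01, 35.8 and 39.3 CPM there. All 3 libraries were above the highest WT library, with a log2 fold change of 0.60 (standard error 0.0896, edgeR adjusted p = 5.77e-05). MYLIP was at 25.8, 27.5 and 24.9 CPM, also above WT, with a log2 fold change of 0.50 (standard error 0.062, edgeR adjusted p = 1.08e-05). ABCG1 was at 10.1, 14.3 and 14.2 CPM, above WT in all 3 libraries, but its log2 fold change of 0.53 (standard error 0.126, edgeR adjusted p = 0.00248) missed the threshold. ABCG1 was called without myrAKT replicate 1 (0.67, edgeR adjusted p = 7.92e-05), by DESeq2 (0.53, DESeq2 adjusted p = 0.000314), with the replicate block and with no filter on low counts. NR1H2, GRAMD1A and GRAMD1B overlapped with WT, with log2 fold changes of 0.04, −0.06 and −0.08, and STARD4 was lower (−0.48, standard error 0.0411, edgeR adjusted p = 2.12e-07).

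The KO pools were then compared with myrAKT directly. Here 16 of the 39 genes were higher in KO, where 19.1% of all genes tested were called higher, and 8 were lower, where 16.7% of all were called lower. Of the 16, 12 were sterol synthesis genes. The median log2 difference was 0.44 for the 18 genes of that role, 0.18 for the 39 and 0.00236 for all genes tested. DHCR7 differed by 1.02 (standard error 0.0812, edgeR adjusted p = 8.65e-07) and SC5D by 0.91 (standard error 0.0519, edgeR adjusted p = 7.7e-08). The 8 lower genes included 4 of the LXR group and both Aster genes. ABCG1 differed by −2.74 (standard error 0.134, edgeR adjusted p = 2.68e-08), ABCA1 by −2.02 (standard error 0.0928, edgeR adjusted p = 1.98e-08) and GRAMD1B by −1.36 (standard error 0.0504, edgeR adjusted p = 4.59e-09). NR1H3 differed by −0.04 (standard error 0.077, edgeR adjusted p = 0.671) and its libraries overlapped. INSIG1 was called higher in KO (0.27, standard error 0.0488, edgeR adjusted p = 0.000452), but that call ended under upper-quartile normalization, library totals and the replicate block, and without KO1 replicate 3, KO2 replicate 1 or any 1 myrAKT library (edgeR adjusted p up to 0.00375). SREBF1 was lower in KO (−0.41, standard error 0.0608, edgeR adjusted p = 0.000116), a call that ended without myrAKT replicate 2 (−0.38, edgeR adjusted p = 0.00133).

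**Figure D4:**
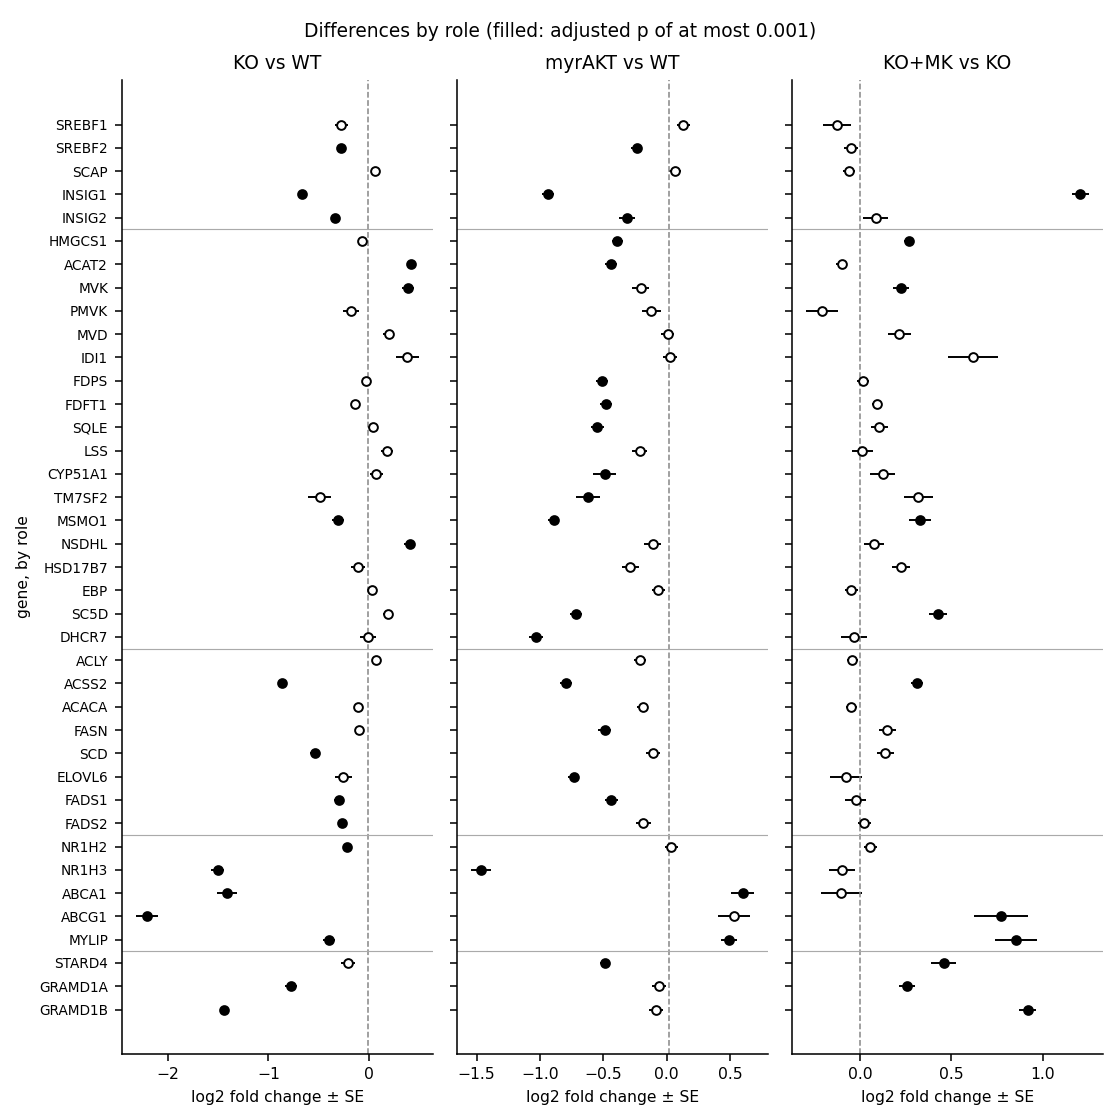
Log2 fold change (x axis) of each of the 39 genes, ordered by role, in KO against WT, myrAKT against WT and KO+MK against KO, on x axes of different range, with standard errors as bars, filled points for an adjusted p of at most 0.001 (edgeR) and a dashed line at the median of all genes tested. The sterol synthesis genes lie mostly left of the line in myrAKT and on both sides of it in KO, and ABCA1 lies left in KO and right in myrAKT.

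MK2206 was given to the KO pools to ask what AKT inhibition does to the changed genes. In the 6 treated against the 6 untreated KO libraries, 11 of the 39 genes were higher, where 12.8% of all genes tested were called higher, and 0 were lower by edgeR, where 8.75% of all were called lower. At an unadjusted p under 0.05 by edgeR, 21 of the 39 genes differed in either direction, as did 8317 of the 15587 genes tested. DESeq2 called 14 of the 39 higher and 1 lower, ACAT2. All 3 sterol transfer genes were among the 11, with 4 of 18 in sterol synthesis, 2 of 5 in the LXR group, 1 of 5 SREBP regulators and 1 of 8 in fatty acid synthesis. The median log2 fold change was 0.09 for the 39 genes and −0.00313 for all. The treated libraries were shallower, with 23419198 to 29939536 counted reads against 35627965 to 39319910, and with every library thinned to the smallest total 10 genes were higher and 0 lower. The number of higher genes was 7 without KO1 replicate 3, without KO1+MK replicate 2 or with the replicate block, and 17 with a term for the pool. The shares of all genes called by DESeq2 and in these other fits are not given here. The shifts in number therefore cannot be read as particular to the 39 genes. Of all genes called, 59.3% were higher with TMM and 48.3% with upper-quartile normalization, which called 9 of the 39 genes higher and 1 lower.

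INSIG1 was at 505, 508 and 499 CPM in KO1+MK and 469.7, 517 and 571 in KO2+MK. This was above every untreated KO library and every WT library, with a log2 fold change against untreated KO of 1.21 (standard error 0.047, edgeR adjusted p = 1.76e-09). GRAMD1B was at 65.5, 62.2 and 62.7 CPM in KO1+MK and 56.7, 57.4 and 54.7 in KO2+MK. The treated libraries lay between the KO and the WT ranges, with a log2 fold change of 0.92 (standard error 0.0473, edgeR adjusted p = 1.22e-08). MYLIP was at 21.5, 21.1 and 20.5 CPM in KO1+MK and 26.8, 26.7 and 34.7 in KO2+MK. All 6 were above the KO and WT ranges and the widest spread was in KO2+MK, with a log2 fold change of 0.86 (standard error 0.114, edgeR adjusted p = 3.11e-05). ABCG1 was at 2.96, 3.93 and 3.81 CPM in KO1+MK and 2.29, 2.67 and 3.92 in KO2+MK, above KO and below WT. Its log2 fold change was 0.77 (standard error 0.148, edgeR adjusted p = 0.000683), a call that ended without any 1 of 10 of the 12 libraries, all but KO2+MK replicates 1 and 2 (edgeR adjusted p up to 0.00223), with the replicate block and in the thinned libraries (0.74, edgeR adjusted p = 0.00158). ABCA1, by contrast, was at 9.62, 8.23 and 10.2 CPM in KO1+MK and 7.33, 6.59 and 7.27 in KO2+MK. Over both pools those values overlapped the untreated KO libraries, as did NR1H3, with log2 fold changes of −0.10 (standard error 0.111, edgeR adjusted p = 0.476) and −0.10 (standard error 0.0709, edgeR adjusted p = 0.273). Both genes also overlapped within KO1. Within KO2 both were lower in every treated library, without being called. The share of all genes tested that separated in this way was not counted, and 8325 of 15587 differed there at an unadjusted p under 0.05 by edgeR. ABCA1 lay at 7.995 to 9.88 CPM in KO2 against 6.59 to 7.33 in KO2+MK, and NR1H3 at 10.2 to 11.2 against 8.11 to 9.62.

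STARD4 was at 124, 131 and 127 CPM in KO1+MK and 129, 144 and 154 in KO2+MK, above all KO libraries, with a log2 fold change of 0.46 (standard error 0.0695, edgeR adjusted p = 9.47e-05). GRAMD1A rose by less (0.26, standard error 0.0458, edgeR adjusted p = 0.000362), and its call ended without any 1 of 6 of the 12 libraries: KO1 replicate 3, KO2 replicates 2 and 3, KO1+MK replicates 2 and 3 and KO2+MK replicate 1 (edgeR adjusted p up to 0.00118), and with the replicate block or no filter on low counts. In sterol synthesis, SC5D was at 107, 113 and 112 CPM in KO1+MK and 95.4, 104 and 116 in KO2+MK, above all KO and WT libraries, with a log2 fold change of 0.43 (standard error 0.0492, edgeR adjusted p = 8.01e-06). HMGCS1 was at 199.9, 202 and 199.6 CPM in KO1+MK and 190.0, 197 and 194 in KO2+MK. It did not overlap with untreated KO and had a log2 fold change of 0.27 (standard error 0.0281, edgeR adjusted p = 3.38e-06). MSMO1 (0.33 ± 0.061) and MVK (0.22 ± 0.0424) were the other 2 called, with edgeR adjusted p of 0.000537 and 0.000609. Each of these calls ended without any 1 of 8 of the 12 libraries, with edgeR adjusted p of up to 0.00246 for MSMO1 and 0.00278 for MVK, and with upper-quartile normalization or the replicate block. That of MVK also ended with DESeq2 size factors and with no filter on low counts. IDI1 was at 117, 118 and 125 CPM in KO1+MK and 152, 176 and 195 in KO2+MK, above its own untreated pool in every library. It missed the threshold in the pooled test (0.62, standard error 0.138, edgeR adjusted p = 0.00209) and was called within KO1 (0.55, standard error 0.0452, edgeR adjusted p = 9.77e-07) and within KO2 (0.67, standard error 0.0658, edgeR adjusted p = 1.28e-06). With a term for the pool IDI1 (0.61, edgeR adjusted p = 3.58e-09), MVD, TM7SF2 and HSD17B7 were called higher as well.

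ACSS2 was the 1 gene of fatty acid synthesis called by the fit without a term for the pool, at 107, 111 and 109.6 CPM in KO1+MK and 98.5, 102 and 106 in KO2+MK. These values lay above KO and below WT, with a log2 fold change of 0.31 (standard error 0.0328, edgeR adjusted p = 3.62e-06). With a term for the pool FASN (0.15, edgeR adjusted p = 0.000127) and SCD (0.14, edgeR adjusted p = 0.000771) were called higher too, FASN also with all 18 libraries in 1 fit. FASN lay at 1564 to 1595 CPM in KO1 against 1707 to 1754 in KO1+MK, and at 1410.0 to 1479 in KO2 against 1493 to 1641 in KO2+MK, without overlap within either pool. The regulators SREBF1, SREBF2, SCAP and INSIG2 overlapped between treated and untreated libraries over both pools, with log2 fold changes of −0.13 to 0.08. SREBF2 was without overlap within each pool and the other 3 within 1 of them, but all missed the threshold there. The share of all genes tested without overlap was not counted, so this separation cannot be read as particular to these genes. At an unadjusted p under 0.05 by edgeR, 8196 of the 15587 genes tested differed in KO1 and 8325 in KO2. SREBF1 lay at 111 to 118 CPM in KO2 against 95.05 to 106 in KO2+MK (log2 fold change −0.20, standard error 0.0426, edgeR adjusted p = 0.0014). SREBF2 lay at 264 to 273 CPM in KO1 against 248 to 260.3 in KO1+MK, and at 243 to 253 in KO2 against 228 to 242 in KO2+MK. SCAP lay at 116 to 118 CPM in KO1 against 106 to 112 in KO1+MK, and INSIG2 at 24.6 to 25.4 against 26.02 to 29.6 CPM. With all 18 libraries in 1 fit SREBF1 was called lower after MK2206 (−0.15, edgeR adjusted p = 0.000759).

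**Figure D5:**
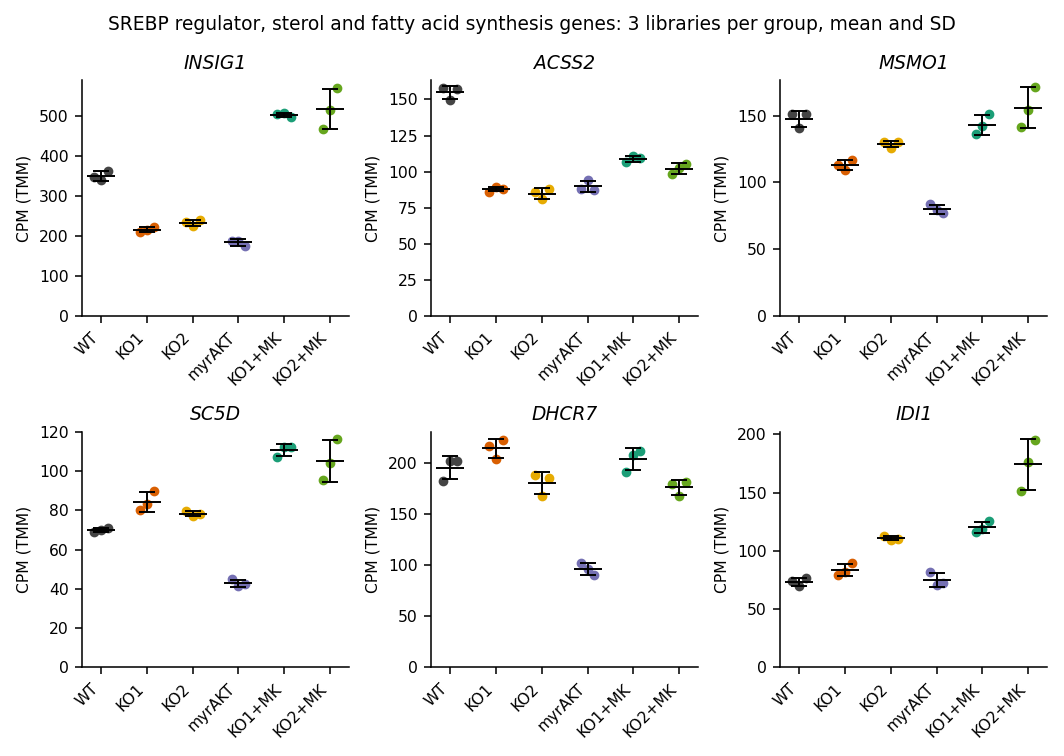
CPM (TMM-normalized, linear axis from 0) of INSIG1, ACSS2, MSMO1, SC5D, DHCR7 and IDI1 in each library, as points by group, with the mean and SD of 3 libraries as black bars. INSIG1 is lowest in myrAKT and highest in the treated pools, and DHCR7 is low in myrAKT alone.

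Within KO1, 10 of the 39 genes were higher after MK2206 (10.9% of all genes tested) and 0 lower (8.26% of all). Within KO2, 12 were higher (13.1% of all) and 0 lower (8.78% of all). At an unadjusted p under 0.05 by edgeR, 20 of the 39 genes differed in KO1 and 25 in KO2, in either direction. Of the 15587 genes tested, 8196 did so in KO1 and 8325 in KO2. DESeq2 called 0 of the 39 lower in KO1 and 1 in KO2, SREBF1 (−0.20, DESeq2 adjusted p = 0.000272). SREBF1 in KO2 was also called lower with upper-quartile normalization, no filter on low counts, the replicate block and without KO2+MK replicate 1. The number higher in KO2 was 7 without KO2+MK replicate 2. INSIG1 had a log2 fold change of 1.25 ± 0.0351 in KO1 and 1.17 ± 0.0561 in KO2 (standard errors), and GRAMD1B had 0.96 ± 0.0438 and 0.88 ± 0.045. The test of a difference in the MK2206 effect between the pools called 0 of the 39 genes higher in KO1 (0% of all genes tested by edgeR) and 0 lower (0.0128% of all). At an unadjusted p under 0.05 by edgeR, 4 of the 39 genes differed (SREBF1, INSIG2, HMGCS1 and MYLIP), as did 1251 of the 15587 genes tested. DESeq2 called 0 of the 39 in either direction. MYLIP, with log2 fold changes of 0.67 ± 0.0562 in KO1 and 1.00 ± 0.0883 in KO2, had a difference of −0.33 (standard error 0.116, edgeR adjusted p = 0.429).

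The treated pools were finally set against untreated WT, a comparison in which the effects of the pools and of the drug cannot be told apart. In it 8 of the 39 genes were higher (16.0% of all genes tested) and 8 lower (16.1% of all). The 8 higher genes were INSIG1 and 7 of the 18 sterol synthesis genes, with IDI1 the highest (1.00, standard error 0.158, edgeR adjusted p = 0.000183). SC5D was 0.61 (standard error 0.0588, edgeR adjusted p = 4.04e-06) and INSIG1 0.54 (standard error 0.0567, edgeR adjusted p = 8.56e-06). By DESeq2, with all 18 libraries in 1 fit and with no filter on low counts, 14, 15 and 15 genes were lower, and the shares of all genes called there are not given here. The 8 lower genes by the first test were SREBF2, ACSS2, SCD, NR1H3, ABCA1, ABCG1, GRAMD1A and GRAMD1B. ABCA1 was −1.52 (standard error 0.126, edgeR adjusted p = 1.39e-06), NR1H3 −1.61 (standard error 0.0828, edgeR adjusted p = 9.96e-08) and ABCG1 −1.45 (standard error 0.157, edgeR adjusted p = 1.03e-05). MYLIP lay above WT in all 6 treated libraries without being called (0.45, standard error 0.149, edgeR adjusted p = 0.0207). Without WT replicate 1, 2 or 3, the number of higher genes was 4, 5 and 4, and the call for IDI1 ended each time (edgeR adjusted p up to 0.00183). That for SCD ended without WT replicate 2 or 3 (edgeR adjusted p up to 0.00137).

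Other genes of the same pathways, from lists fixed by function, give the setting. Of 7 tested LXR partners and targets outside the 39 genes, 2 were lower in KO than in WT (16.6% of all genes tested were): PLTP, a phospholipid transfer protein of plasma (−1.37, standard error 0.18, edgeR adjusted p = 5.14e-05), and TTC39B (−0.95, standard error 0.0862, edgeR adjusted p = 3.29e-06). PLTP averaged 1.92 CPM in WT and 0.75 CPM in KO. Its KO mean lay below the 1 CPM of the filter on low counts, so the size of its difference is uncertain. In myrAKT LPCAT3 was lower, a call that ended without WT replicate 2 or 3 or myrAKT replicate 2 or 3 (edgeR adjusted p up to 0.00246). After MK2206 3 were higher (12.8% of all), with TTC39B at 0.50 (standard error 0.0844, edgeR adjusted p = 0.000241), a call that ended in the thinned libraries (edgeR adjusted p = 0.00101). The exons of PLTP share 329 bases with CTSA, a gene with far more counts, and those of LPCAT3 share 3096 bases (66%) with EMG1, both on the opposite strand, so their values are uncertain. Of 16 other genes of the mevalonate pathway and its branches, 4 were higher in KO (15.5% of all genes tested). They included PDSS1, of ubiquinone synthesis (0.88, standard error 0.085, edgeR adjusted p = 5.13e-06), and TMEM97 (0.77, standard error 0.0496, edgeR adjusted p = 3.69e-07), and on the opposite strand PDSS1 shares 206 exon bases with ABI1 and TMEM97 shares 361 with IFT20. In myrAKT 6 of these 16 were lower (17.3% of all). After MK2206 1 was higher (12.8% of all), PDSS2 (0.30, edgeR adjusted p = 2.41e-05), and 3 were lower (8.75% of all): PDSS1 (−0.47, standard error 0.0714, edgeR adjusted p = 0.000102), COQ2 (−0.28, edgeR adjusted p = 5.56e-05) and LBR (−0.28, edgeR adjusted p = 4.09e-06).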

How the data were processed

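The deposited values are counts: whole numbers of reads per Ensembl gene, not normalized. The submitters' processing notes name FastQC, Trim Galore, HISAT2, featureCounts, MultiQC and hg38. Versions, annotation and the strand setting of the counting are not given in the sources used here. Groups were taken from the labels. Libraries held 23419198 to 39319910 counted reads.

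A gene was tested if 3 or more of the 18 libraries reached 1 CPM, with edgeR 4.0.16 in R 4.3.3 (TMM normalization, two-sided quasi-likelihood test on the groups compared only, Benjamini-Hochberg adjustment), called at an adjusted p of at most 0.001. For treated against untreated KO cells this fit had no term for the pool. CPM values are TMM-normalized over all libraries. Positions and exon lengths are from GENCODE release 44. Summaries used pandas 2.3.3 and numpy 2.4.6 under Python 3.11.15, and plots matplotlib 3.10.9. The fits were tested on simulated data.

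Genes named throughout were the SREBP regulators, ABCA1, ABCG1, MYLIP and the sterol transfer genes, plus, in KO against WT, myrAKT against WT and MK2206, up to 6 further genes called with the largest log2 fold change in each direction, and up to 2 genes of each other list. Some genes that this rule names are not reported here. NR1H2, IDI1, FASN, PDSS2, COQ2, LBR, the remaining genes listed by range, ELOVL6 in KO1 against KO2 and the values of genes in comparisons where the rule did not name them were picked with their values in view. The 39 genes and the lists were chosen with earlier results of these data known. Alternatives were DESeq2 1.42.0, 3 other normalizations, 2 other filters, all 18 libraries in 1 fit, the replicate number as a block, other thresholds, a term for the pool, each library left out in turn and, chosen after seeing the data, libraries thinned to the smallest total.

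Pairs of replicates gave a mean chi-square per gene of 1.99 to 8.62, above what counting alone gives. Reads are not independent molecules, and the source of this excess was not tested.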

Additional observations from a re-analysis of the deposited data

Results flagged for a closer look

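In the 6 untreated KO libraries, FADS2 in KO2 replicate 2 (623 CPM) lay below the other 5 (683 to 702 CPM), with a gap of 0.759 of the whole range. This was 1 of 78 gene and group pairs examined, and chance gives about 1 in 20. The effect against WT differed between the pools, by the direct test of KO1 against KO2 with edgeR, in 5 of the 39 genes: 2 were higher in KO1, where 7.06% of all genes tested were, and 3 lower, where 5.54% of all were. The log2 difference, KO1 minus KO2, was −0.42 for IDI1, −0.20 for MSMO1, 0.24 for DHCR7, 0.30 for ELOVL6 and −0.27 for STARD4. The calls for DHCR7 (edgeR adjusted p up to 0.00256) and MSMO1 (up to 0.00131) ended without KO1 replicate 1, that for DHCR7 also without KO1 replicate 3, that for MSMO1 also without KO2 replicate 1, and both with all 18 libraries in 1 fit.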

How the results depend on the processing

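No called difference of a named gene changed sign under any alternative in KO against WT, myrAKT against WT, KO against myrAKT or MK2206 in both pools. In these comparisons 11 of 17, 13 of 15, 13 of 16 and 7 of 11 named genes called were called in every alternative other than a minimum fold change. Depth limits ABCG1 most, with 54 counts in its lowest library.

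Under a minimum fold change of 1.5 at an adjusted p of 0.001, the numbers higher and lower were 0 and 7 in KO against WT, 0 and 7 in KO1, 1 and 8 in KO2, 1 and 8 in myrAKT, 4 and 5 in KO against myrAKT, 0 and 0 in KO1 against KO2 and 3 and 3 in KO+MK against WT, and 4 were higher after MK2206 in both pools, in KO1 and in KO2. At 0.05 and 1.5-fold these were the same numbers in each of these comparisons, except 5 higher after MK2206 in both pools. The fold minimum itself lowers these counts. Of the 15587 genes tested, 635 were higher and 1339 lower in KO against WT at 0.001 and 1.5-fold. In the same order, 715 and 1447 were so in KO1, 866 and 1742 in KO2, and 770 and 1376 in myrAKT. In KO against myrAKT these were 1062 and 1463, in KO1 against KO2 292 and 116, and in KO+MK against WT 952 and 1393. Higher after MK2206 were 701 in both pools, 515 in KO1 and 764 in KO2. With all 18 libraries in 1 fit, 7 were higher in KO against WT, 1 higher in KO1 against KO2, 1 lower after MK2206 in both pools (SREBF1) and 15 lower in KO+MK against WT. DESeq2 gave 5 higher in KO1 against KO2, 1 lower after MK2206 in both pools, 1 lower in KO2 and 14 lower in KO+MK against WT. With no filter beyond 1 count, 8 were higher in KO1 against WT, 8 higher in KO1 against KO2, 1 lower after MK2206 in KO2 and 15 lower in KO+MK against WT. Upper-quartile normalization gave 1 lower after MK2206 in both pools and 1 in KO2, where the share of higher calls among all genes called went from 59.9% to 47.5%. A term for the pool gave 17 higher after MK2206 in both pools, since it removes the difference between the pools from the spread. The cause of the other shifts was not tested.

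The replicate numbers did not pair the libraries: in none of 15 pairs of groups did all same-numbered libraries deviate together with a correlation over 0.1 (range −0.52 to 0.30). With the replicate block 7 were higher after MK2206 in both pools, 4 higher in KO1 against KO2 and 1 lower after MK2206 in KO2.

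With each library left out in turn, the numbers higher and lower ranged over 2 to 3 and 9 to 14 in KO against WT (9 without WT replicate 2 or 3), 4 to 4 and 13 to 19 in KO1, 4 to 6 and 14 to 19 in KO2, 2 to 3 and 16 to 21 in myrAKT, 12 to 16 and 6 to 8 in KO against myrAKT, 1 to 2 and 2 to 4 in KO1 against KO2 (1 without KO1 replicate 1), 7 to 10 and 0 to 0 after MK2206 in both pools (7 without KO1 replicate 3 or KO1+MK replicate 2), 9 to 14 and 0 to 0 in KO1, 7 to 10 and 0 to 1 in KO2 (7 without KO2+MK replicate 2, 1 without KO2+MK replicate 1), 4 to 8 and 7 to 9 in KO+MK against WT, and 0 to 0 for both directions of the difference in the MK2206 effect.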

Other observations

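The counts on lists of neighbouring pathways stand beside those of all genes tested, of which 15.5% were higher and 16.6% lower in KO than in WT, 12.7% higher and 17.3% lower in myrAKT than in WT, and 12.8% higher and 8.75% lower after MK2206. Of 23 tested genes of fatty acid oxidation, 11 were lower in KO than in WT (47.8%), and 3 were higher (13.0%) and 2 lower (8.7%) after MK2206, the last 2 shares close to those of all genes. EHHADH, a peroxisomal enzyme, was at −0.94 (standard error 0.0833, edgeR adjusted p = 2.8e-06) and PPARA, a receptor that drives fatty acid oxidation, at −0.77 (standard error 0.047, edgeR adjusted p = 2.84e-07). In myrAKT 8 were lower and 1 higher, with CPT1A, which admits long-chain fatty acids to mitochondria, at −1.14 (standard error 0.0394, edgeR adjusted p = 2.68e-11). Of 29 tested genes of other fatty acid and glycerolipid synthesis, 2 were higher and 8 lower in KO, 3 higher and 6 lower in myrAKT, and 4 higher and 1 lower after MK2206. DGAT2, which makes triglyceride, was lower in KO (−1.39, standard error 0.134, edgeR adjusted p = 5.05e-06) and higher in myrAKT (0.63, standard error 0.0973, edgeR adjusted p = 7.51e-05). ACACB, a mitochondrial acetyl-CoA carboxylase, was higher after MK2206 (1.02, standard error 0.0656, edgeR adjusted p = 5.42e-08), as was LPIN1, a phosphatidate phosphatase (0.61, standard error 0.0289, edgeR adjusted p = 7.5e-09).

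Of 22 tested genes of other sterol handling, 2 were higher and 10 lower in KO, 1 higher and 8 lower in myrAKT, and 5 higher and 1 lower after MK2206. LRP1, an endocytic lipoprotein receptor, was lower in KO (−1.29, standard error 0.107, edgeR adjusted p = 1.75e-06) and higher in myrAKT (1.00, standard error 0.132, edgeR adjusted p = 1.68e-05). Of 15 other genes of SREBP control, 4 were higher and 4 lower in KO, 3 higher and 6 lower in myrAKT, and 3 higher and 2 lower after MK2206. MBTPS1, a protease that cuts SREBPs in the Golgi, was higher in myrAKT (0.61, standard error 0.0426, edgeR adjusted p = 2.99e-08), and ERLIN2, of sterol-regulated degradation in the endoplasmic reticulum, was lower in KO (−0.51, standard error 0.0482, edgeR adjusted p = 4.7e-06) and in myrAKT (−0.63, standard error 0.0415, edgeR adjusted p = 1.65e-08). Of the 121 genes on these 6 lists, 112 passed the filter on low counts.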
